A study of Drosophila melanogaster with 27 samples.

Results

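The odorant (Or), gustatory (Gr) and ionotropic (Ir) receptor genes of Drosophila melanogaster were followed through the H4K20me1 landscape of the wild-type wing disc. Members were the protein-coding genes whose RefSeq symbol is Or, Gr or Ir followed by a digit, which gave 179 of 13922 protein-coding genes on the X, the arms of chromosomes 2 and 3, and chromosome 4. They comprise 59 odorant, 60 gustatory and 60 ionotropic receptor genes, and the rule uses their symbols and no measured value, though it was set with earlier results of these data known. Chromosome 4 holds no member.

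The study profiled monomethylation of histone H4 lysine 20 (H4K20me1) by CUT&RUN, in which nuclease tethered to the marked nucleosomes by the antibody cuts out DNA for sequencing, to ask how mutation of Set8 or of H4K20 alters the mark. Each library was made from 20 wing imaginal discs of female wandering larvae of instar 3, raised at 25 °C. The values here come from 1 peak list of the wild-type strain Oregon-R, in which libraries with anti-H4K20me1 (n = 3) were set against libraries of the same genotype without primary antibody (n = 3), and neither group carries a mutation or transgene per the labels. The other 8 groups, with 21 mutant or transgenic libraries, were not analysed here. The list gives positions and no value per library, so there is no spread between libraries, no test was made, and shares are set beside the share of all protein-coding genes (the background).

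Or proteins are membrane channels that detect airborne odours together with the co-receptor Orco, most Gr proteins detect sugars, bitter compounds or carbon dioxide, and Ir proteins are relatives of the ionotropic glutamate receptors that sense acids, amines, humidity and temperature. Each is typically expressed in small sets of sensory neurons, and many stand in tandem arrays. The wing disc is an epithelium whose future wing margin will carry taste bristles, and in the larva it holds the precursors of those organs rather than mature taste neurons. H4K20me1 is placed by Set8 and is found over the bodies of many transcribed genes.

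A peak overlapped 9 of the 179 receptor genes by at least 1 bp (5.03%, 95% Wilson interval 2.67 to 9.28), against a background of 38.3% of protein-coding genes. Peaks covered 9.77 kb of the 467 kb of receptor gene sequence (2.09%), counting shared bases once, and 19.0% of all protein-coding gene sequence. Intervals treat genes as the unit and say nothing of the spread between libraries. The median length of receptor genes was 1691 bp, against 2163 bp for all protein-coding genes. Among the genes between their length quartiles, 1377.5 and 2204.5 bp, 6 of 89 receptor genes (6.74%) and 979 of all 2766 genes (35.4%) had a peak. By family, a peak was found in 4 odorant (6.78%, interval 2.67 to 16.2), 2 gustatory (3.33%, interval 0.919 to 11.4) and 3 ionotropic receptor genes (5%, interval 1.72 to 13.7), and these intervals overlap. Arm 2L, with 31 members, held none with a peak, against 33.1% of all protein-coding genes on 2L. This allows a share of up to 9.68% if 3 counts are taken as the limit (11.0% by the Wilson interval). The share reached 8.57% on 3L (3 of 35, interval 2.96 to 22.4), against 38.0% of all protein-coding genes there. The intervals of the receptor genes on 2L and 3L overlap. At least 50% of the body was covered in 5 members (2.79%), against 18.3% of all genes.

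**Figure D1:**
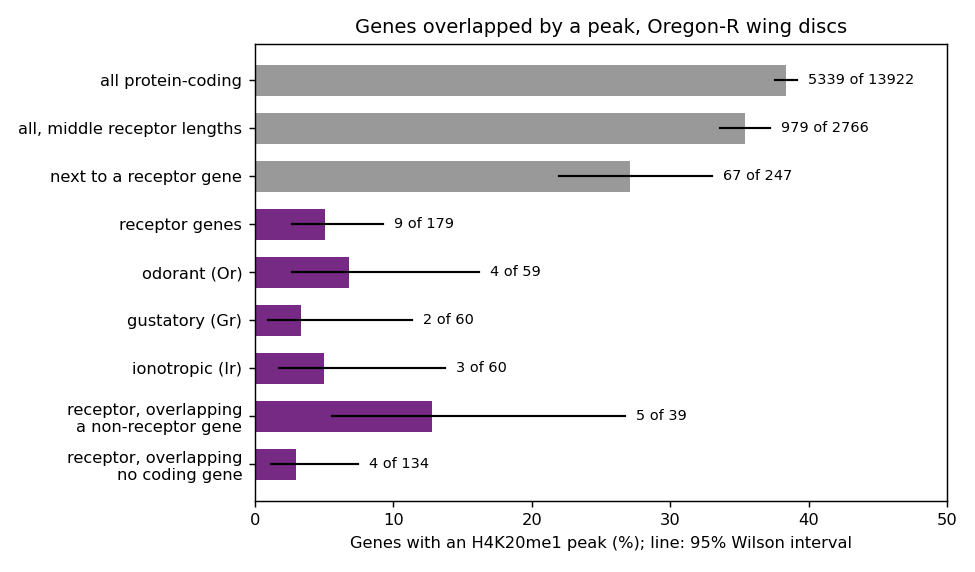
Horizontal bars give the percentage of genes with a peak in Oregon-R discs, lines the 95% Wilson interval, and the figures beside them the counts; "middle receptor lengths" are the quartiles of receptor gene length. The 3 receptor families lie between 3.33% and 6.78%, below the 38.3% of all protein-coding genes and the 27.1% of the genes that flank receptor genes.

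For each of the 9 marked members it was asked whether the peak lay in a neighbour as well. Of the 9 peaks, 8 reached another protein-coding gene and 7 had most of their bases there. The 7 include the peak over Gr77a, which lies wholly in both the receptor gene and its host. No share over all marked protein-coding genes stands beside these counts or the assignments below, so they describe the 9 members only. A peak was assigned to an overlapping neighbour where at least 50% of the member's covered bases also lay in another protein-coding gene (3 members: Ir51b, Gr77a and Ir100a). It was assigned to an adjoining gene where it had more bases in that gene than in the member (4 members: Gr43a, Or43b, Or65c and Or2a), and otherwise to the member (Or65b and Ir93a). For Gr43a and Or43b the gene called adjoining also overlaps the member, over 155 and 745 bp. Of the 9772 covered bp in receptor genes, 4082 bp (41.8%) were shared with an overlapping gene. Coordinates below are on dm6, counted from 1. The annotation used carries neither strand nor exons, so "lower" and "upper" mean the ends with the smaller and the larger coordinate, and exonic and intronic positions are not told apart.

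Among odorant receptor genes, Or43b (2R 7920835 to 7922604), whose product is an antennal receptor, was covered to 99.8% by a peak of 5000 bp. Of that peak, 3979 bp (79.6%) lay in Cul1, the cullin scaffold of the SCF ubiquitin ligase, which shares 745 bp with Or43b and was itself covered to 84.2%. The remaining 1021 covered bp of Or43b belong to Or43b alone, and the peak ended 4 bp inside its upper end.

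Or2a (X 2246231 to 2247567) was covered to 53.9%, in its lower part. The peak of 3350 bp had 2441 bp (72.9%) in fs(1)K10, a gene required in the female germline that ends 189 bp below Or2a, and 720 bp in Or2a. The gene on the other side, crn, starts 26 bp above Or2a and had no peak, so the covered stretch ended within the receptor gene.

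Or65b and Or65c are members of an array of 3 genes with Or65a, expressed in trichoid sensilla of the antenna. Or65c (3L 6327608 to 6329069) was covered to 28.7%, at its upper end, by a peak of 3900 bp that had 3227 bp (82.7%) in CG13300, which lies 254 bp away and was covered to 75.5% in all. Or65b (3L 6325612 to 6327049) carried a peak of 250 bp, 17.4% of its length, at 6326701 to 6326950. This was the only one of the 9 peaks that touched no other protein-coding gene, and it was also the narrowest. Or65a had no peak.

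Among gustatory receptor genes, Gr43a (2R 7390869 to 7393161), the fructose receptor of taste neurons and brain, was covered completely. Its peak of 6900 bp ran across 3 coding genes, with 2673 bp in the RNA helicase gene Dhx15, which shares 155 bp with Gr43a, 2293 bp in Gr43a and 1705 bp in Glo1, 384 bp above it. Dhx15 was covered to 69.7% and Glo1 to 71.4%.

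Gr77a (3L 20737569 to 20739430) lies within CG13252, a gene of 13.9 kb. Its peak of 1200 bp lay wholly inside Gr77a, covering 64.4% of it, and made up most of the 1500 bp covered in CG13252 (10.8%). Every covered base of Gr77a is thus shared with CG13252, which in turn was covered mainly where Gr77a lies, and the position alone does not tell the genes apart.

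Among ionotropic receptor genes, Ir51b (2R 15207993 to 15209786) lies within row, which encodes a zinc finger protein, and was covered completely by a peak of 6800 bp that covered 94.7% of row. Ir100a (3R 31800963 to 31802774) lies within CG42233 and was covered to 10.4% by the upper 188 bp of a 350 bp peak, all of it in CG42233, which was covered to 6.20%.

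Ir93a (3R 20851709 to 20859945), a co-receptor that acts with Ir25a in cool and humidity sensing, was covered to 13.9%, in 1142 bp at its lower end. The peak of 2350 bp also took in the whole of RpS30, a ribosomal protein gene of 912 bp that ends 281 bp below Ir93a. By the count of bases the peak fell to Ir93a, but RpS30 was covered completely and the remaining 7095 bp of Ir93a were free of peaks. KaiR1D, a kainate receptor gene 241 bp above Ir93a, had no peak.

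**Figure D2:**
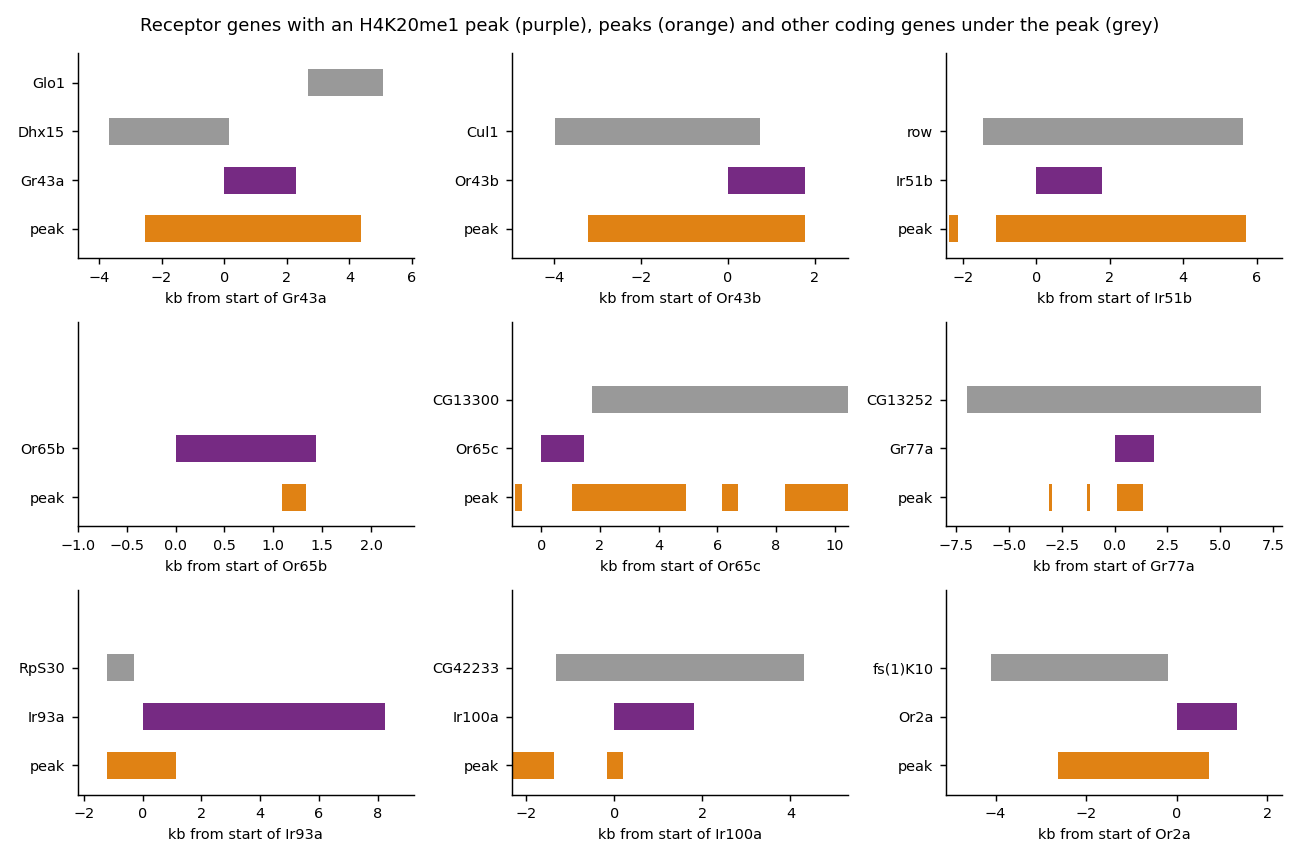
Each panel shows a receptor gene with a peak (purple), the peaks (orange) and the other coding genes under its peak (grey), in kb from the lower end of the receptor gene; genes reaching past a panel are cut at its edge. The peaks over Gr43a, Or43b, Or2a and Or65c have more bases in a gene that adjoins or partly overlaps the receptor gene. The peak over Ir93a also takes in RpS30 but has more bases in Ir93a. Those over Ir51b, Gr77a and Ir100a lie in a host gene, and the 250 bp peak in Or65b touches no other coding gene.

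Of 29 receptor genes listed as examples of known function, 2 had a peak, Gr43a and Ir93a, against the background of 38.3%, and 27 had none. The list does not cover every member with a known ligand, and its share is near that of all receptor genes. The trehalose receptor gene Gr5a lay 2.12 kb from the nearest peak, and the sugar receptor genes Gr61a, Gr64f and Gr64a lay at 1.05, 2.83 and 11.8 kb. The bitter receptor genes Gr66a, Gr32a and Gr33a lay at 1.27, 6.76 and 14.1 kb. Gr63a and Gr21a, whose products together sense carbon dioxide, lay at 1.35 and 29.9 kb. Gr28b, which has been linked to light and heat sensing, lay at 16.1 kb.

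Of the Ir co-receptor genes, the more broadly expressed members of their family, Ir93a had the peak described above, and Ir25a, Ir8a and Ir76b had none. These 3 lay 0.445, 1.68 and 79.7 kb from the nearest peak. The hygrosensory genes Ir68a and Ir40a lay at 8.57 and 21.0 kb, the cool receptor gene Ir21a at 1.02 kb, the acid receptor gene Ir64a at 12.0 kb and Ir84a, which promotes courtship, at 63.5 kb. Among odorant receptor genes, Or67d, the receptor for the male pheromone cVA, lay at 49.95 kb, the geosmin receptor gene Or56a at 56.0 kb and the diacetyl receptor gene Or92a at 30.0 kb. Or22a, a fruit ester receptor gene, lay at 89.1 kb and Or42b at 30.0 kb. Or83a, Or85a, Or88a and Or47b lay at 1.19, 5.15, 8.88 and 10.4 kb.

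Long receptor genes were among those without a peak, though Ir93a (8.24 kb), longer than all those named below except Ir41a and Ir40a, had one. The longest members without a peak were Ir41a (104 kb), Ir40a (24.9 kb) and Ir92a (4.93 kb) among ionotropic receptor genes, Gr28b (7.42 kb), Gr39a (6.95 kb) and Gr10a (3.96 kb) among gustatory ones, and Or10a (3.96 kb), Or45a (3.52 kb) and Or22c (3.38 kb) among odorant ones. Gr10a and Or10a share the same interval in the annotation, as do Gr64b and Gr64c, and Gr64d and Gr64e overlap almost fully, so these 3 pairs are not separate observations.

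Members in tandem arrays were mostly without a peak. With a gap of at most 5 kb between members, 79 receptor genes fell into 28 arrays, and 27 arrays held no member with a peak. The exception was the Or65 array, and a peak of 350 bp also lay between Gr8a and Ir8a, in CG12121. These include all 4 arrays of at least 4 genes: Gr64a to Gr64f (6 genes in 10.8 kb), Gr22a to Gr22e (5 genes in 10.9 kb), Ir7c to Ir7g (5 genes in 12.6 kb) and Ir52a to Ir52d (4 genes in 8.73 kb). A peak was present in 2 of the 79 members of arrays (2.53%, interval 0.697 to 8.77) and in 7 of the 100 other members (7%, interval 3.43 to 13.7), against the background of 38.3%, and these intervals overlap. Genes of an array share their surroundings and are not independent of each other.

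Receptor genes nested in or crossing other genes give a second view of where peaks stop. Of the 45 members that overlap another protein-coding gene, 6 overlap only another receptor gene. The 39 others met 40 such genes, of which 13 had a peak (32.5%), and 5 of the 39 members had one (12.8%), against 47.3% of all protein-coding genes that overlap another. Of the 134 members that overlap no other protein-coding gene, 4 had a peak (2.99%), against 32.0% of all such genes.

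In 7 cases the receptor gene was free of peaks although an overlapping gene was not. Gr39a (6.95 kb) lies within Mondo, a gene of 23.97 kb for a sugar-responsive transcription factor, whose peak lay 10.6 kb away. Or71a lies within Plp, a centrosomal protein gene covered over 1700 bp, at 13.1 kb from that peak. The same 1700 bp also lie in another gene, sstn, which was covered to 43.6%, and the position alone does not tell Plp and sstn apart. Or83a lies within CG1172, whose peak of 900 bp lay 1.19 kb away. Ir85a lies within the interval shared by Pif1A and Pif1B, which held 5 peaks, the nearest at 3.28 kb. Gr64f, Ir60e and Gr8a only touch CG11593, Brca2 and CG12121, over 53, 28 and 32 bp, and their peaks lay 2.83 (a peak that also reached Rcd5), 1.10 and 1.87 kb away. These neighbours were covered over at most 21.8% of their length. Of the overlapping genes whose peaks ran over a receptor gene, Cul1, Dhx15 and row were covered to 84.2%, 69.7% and 94.7%, but CG13252 and CG42233 only to 10.8% and 6.20%. In CG13252, 1200 of the 1500 covered bp, and in CG42233 all 350 bp, belong to the peak that reached the receptor gene. The coverage of the neighbour thus did not separate the cases. It also includes the peak that runs over the receptor gene, so the comparison is in part circular. Of the 7 members that lie wholly within a gene with a peak, 3 had a peak themselves (42.9%, interval 15.8 to 74.95). This interval holds the 54.7% of all 858 genes nested in that way, so the 7 members do not set receptor genes apart. A peak in a nested gene also marks its host, so this filter is passed in part through the nested gene's own peak. Without the filter, 3 of the 26 members within another gene had a peak (11.5%), against 29.8% of all 1575 such genes.

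**Figure D3:**
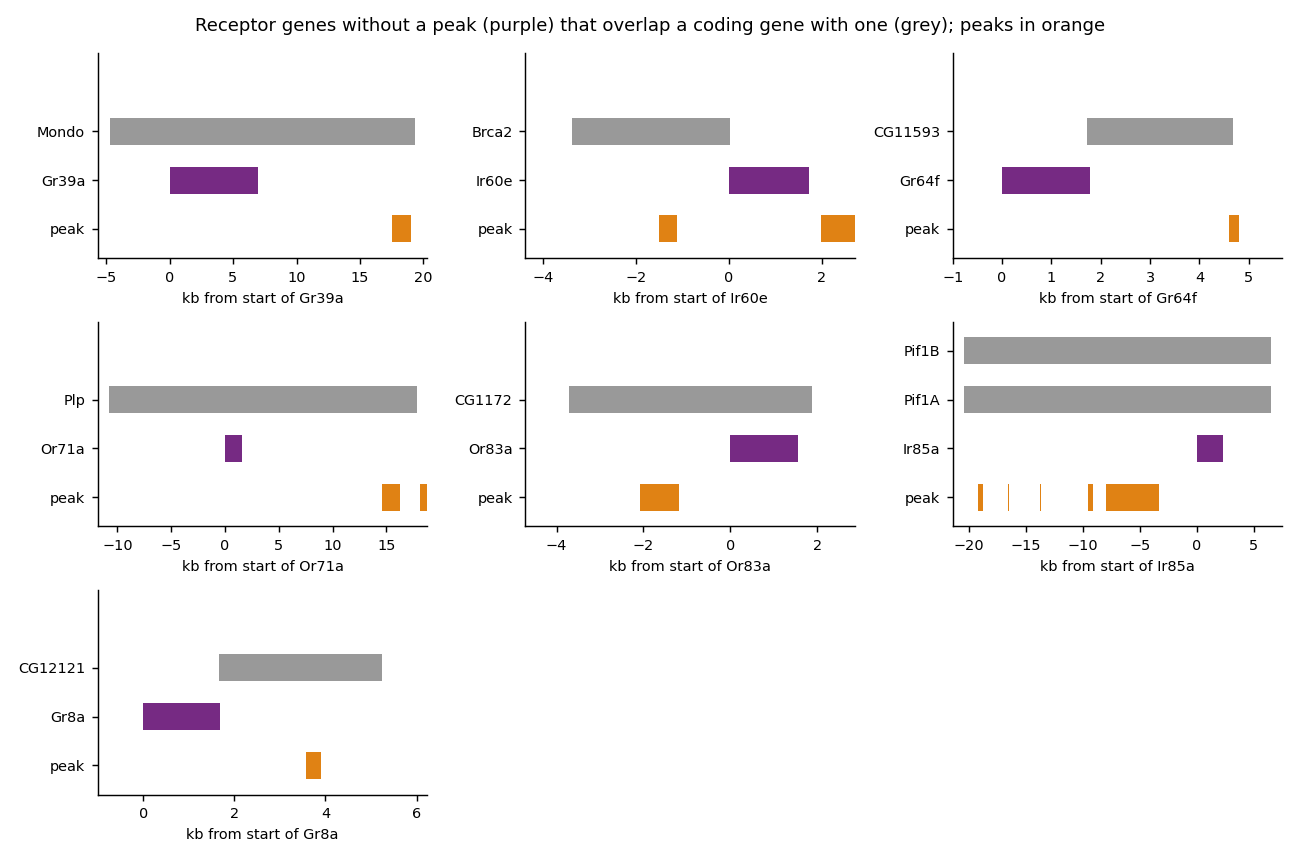
Each panel shows a receptor gene without a peak (purple), the coding genes that overlap it and have one (grey) and the peaks (orange), in kb from the lower end of the receptor gene. The peaks of Mondo and Plp, the latter also in sstn (not drawn), lie over 10 kb from Gr39a and Or71a. Those of CG1172, Brca2 and CG12121 lie between 1.10 and 1.87 kb from Or83a, Ir60e and Gr8a.

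The genes beside the receptor genes were marked more often than the receptor genes. The nearest protein-coding genes on either side that are no receptor genes and do not overlap the member numbered 247, and 67 of them had a peak (27.1%, 95% Wilson interval 22.0 to 33.0), against the background of 38.3%. Within 5 kb of the member the share was 30.7% (47 of 153). Receptor genes between marked genes were mostly unmarked. Where the nearest coding genes that do not overlap the member, receptor genes included, had a peak on both sides, 2 of 12 receptor genes had one (16.7%), namely Gr43a and Or65c, against 70.7% of all protein-coding genes in that position. With a marked gene on 1 side the counts were 4 of 47 (8.51%) against 46.9%, and with none they were 3 of 120 (2.50%) against 16.8%. Among the 10 without a peak, Ir76a lay 298 bp from SREBP, the lipid regulator gene, which was covered to 94.2%, and 310 bp from TORIP. Or85f lay 18 bp from CG34117, and Gr47b lay 28 bp from the acetyltransferase gene san. In Gr47b and Or85f the distance to the nearest peak was 699 and 399 bp.

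Peaks came within 1 kb of 9 members without reaching them (5.29% of the 170 without a peak, against 14.9% of the 8583 protein-coding genes without one). The closest approach was at Ir60e, 278 bp from a peak in CG13585, followed by Or85f at 399 bp and Ir25a at 445 bp from a 200 bp peak in the farnesyltransferase subunit gene Fnta. All 9 of these peaks lay in a protein-coding gene, and in none of the 9 did that gene overlap the receptor gene. No such share for all genes without a peak stands beside these counts, so they are not read as particular to receptor genes. At Gr98d and Gr97a, 588 and 765 bp away, the peaks were 8300 and 9050 bp wide and lay in the kinesin gene Klp98A and in CG5521, which were covered to 75.6% and 82.7% by all their peaks together. Members without a peak had a median distance of 13.1 kb to the nearest one, against 7.58 kb for all protein-coding genes without a peak. By family the medians were 20.1 kb for odorant, 13.1 kb for ionotropic and 8.64 kb for gustatory receptor genes. The most distant members were Gr36a, Gr36b and Gr36c, an array on 2L that lay 193, 191 and 190 kb from any peak.

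**Figure D4:**
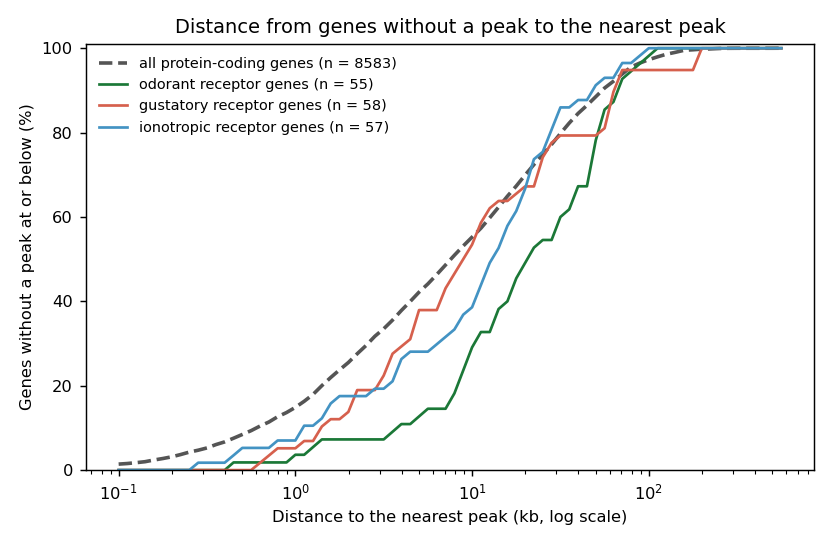
Lines give the cumulative percentage of genes without a peak (vertical axis) that lie within a given distance of the nearest peak (kb, log scale), for the 3 receptor families and for all protein-coding genes. The odorant line runs lowest over most of the range, with a median of 20.1 kb against 7.58 kb for all genes.

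Coverage was also low in the flanks of receptor genes, which in part hold other receptor genes. Of the 179 members, 79 lay within 5 kb of another, so near flanks include receptor gene bodies and count some bases more than once. Averaged over genes, peaks covered 2.73% of receptor gene bodies, 3.21% of the first 1 kb on either side and 5.93% at 1 to 5 kb. Coverage was 8.09% at 5 to 10 kb, 11.0% at 10 to 20 kb and 12.6% at 20 to 50 kb. For all protein-coding genes the values were 19.0% in the body, 13.9% in the first 1 kb and between 16.2% and 18.5% beyond. Odorant receptor genes stayed at 3.41% at 1 to 5 kb, where gustatory and ionotropic receptor genes stood at 6.88% and 7.44%. The order of the families changed between windows. In the body the odorant share was the highest (3.38%, against 2.74% gustatory and 2.07% ionotropic). At 10 to 20 kb the gustatory share was the lowest (8.14%, against 11.9% odorant and 13.0% ionotropic).

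**Figure D5:**
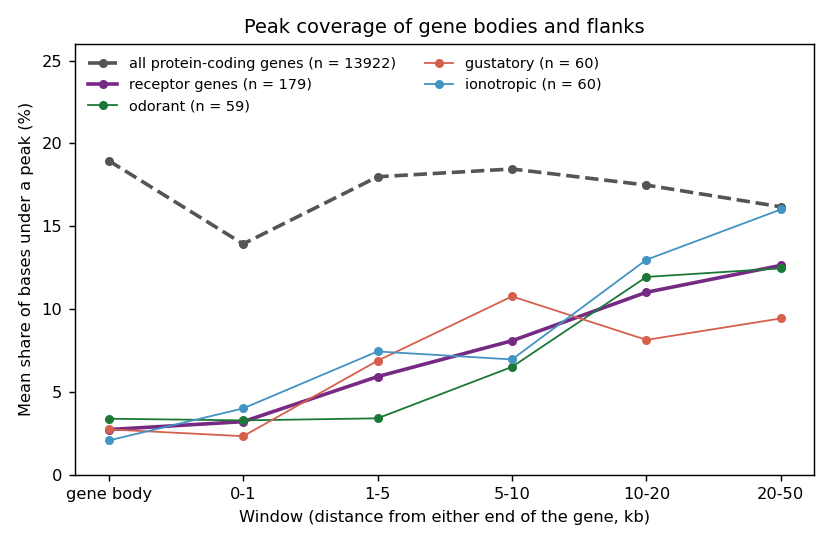
Points give the mean percentage of bases under a peak in gene bodies and in windows on both sides (kb from either end), for receptor genes, each family and all protein-coding genes. Windows can include other receptor genes. Receptor genes rise from 2.73% in the body to 12.6% at 20 to 50 kb, and all genes stay between 13.9% and 19.0%.

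Of 20 listed genes that act with the receptors or in related sensory transduction, 6 had a peak (30.0%, interval 14.5 to 51.9), an interval that holds the background of 38.3%. Their median length was 4722.5 bp, longer than that of the receptor genes, and a rule of 1 bp of overlap favours long genes. The 6 were Galphaq, covered to 52.1%, and norpA, the phospholipase C gene, to 22.0%, both of phototransduction, Amt, an ammonium transporter, to 14.6%, Itpr, an intracellular calcium channel, to 7.18%, and ppk25 and Snmp1 over 150 bp each. Orco, the co-receptor of Or proteins, had no peak and lay 10.7 kb from one, and the receptor regulators acj6 and pdm3 and the proneural genes amos and ato had none. Of 13 ionotropic glutamate receptor genes, the relatives of the Ir genes, 1 had a peak (7.69%, interval 1.37 to 33.3), against the background of 38.3%. It was Nmdar1, which overlaps Itpr and was covered to 7.59%. Among 7 receptor pseudogenes, which are no members, 1 had a peak (14.3%, interval 2.57 to 51.3, which holds the background), namely Ir51a, over 250 bp.

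Of 10 genes listed as wing disc markers, 7 had a peak (70.0%, interval 39.7 to 89.2), against the background of 38.3%. Coverage was 77.0%, 69.8% and 61.0% in salm, sd and ap, and wg, dpp and vg had no peak. Of 8 neuron markers, Syx1A and elav had a peak (25.0%, interval 7.15 to 59.1, which holds the background), and nSyb, Syt1, brp, para, Sh and futsch did not. Both lists hold long genes (median 15380 and 32727 bp, against 2163 bp for all protein-coding genes), which the rule of 1 bp favours. Peaks are not expression levels, so these counts do not measure how many neurons the discs held. Read depth is unknown, and the absence of a peak does not show that the mark was absent, since the threshold behind the list is not known.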

How the data were processed

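The deposited file is a list of 6914 peaks with chromosome, start, end and width in base pairs (no score, fold or p-value). The authors called it on Oregon-R libraries with H4K20me1 antibody against libraries without primary antibody, per the labels. Per the submitters' processing notes the build is dm6, and the tools were deepTools, edgeR, bedtools, SAMtools and Bowtie2, with no roles stated. How peaks were called, at which threshold and whether on pooled replicates is not given in the sources used here, so depth per library is unknown. The width of all 6914 peaks includes both ends, so coordinates are 1-based. Gene bodies, symbols and biotypes came from the NCBI RefSeq table of the same assembly. No genome sequence was used.

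Overlaps were computed in Python 3.11.15 with numpy 2.4.6, tested on simulated intervals, and Wilson intervals with scipy 1.17.1. A gene had a peak at 1 bp of overlap. The members and lists were chosen with earlier results of these data known. Named genes are all members with a peak, those without one that overlap a marked gene, the 3 longest unmarked members per family, the 3 nearest to and 3 farthest from a peak, and members of known function. Others (the neighbours of these genes, Ir76a, Gr47b, Gr97a, Gr98d, the array members, the list members and Ir51a) were chosen after their values were seen.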

Additional observations from a re-analysis of the deposited data

How the results depend on the processing

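The share of receptor genes with a peak stayed below that of all protein-coding genes in all 17 alternatives, by 15.5 to 40.3 points. It was within the interval of the reported value in 15 of them. It fell to 2.23% when the midpoint of a peak had to lie in the gene (background 27.9%) and rose to 10.1% with 1 kb added on each side (background 47.5%). The number of marked members assigned to an overlapping neighbour rose from 3 to 5 when any shared base sufficed, which adds Gr43a and Or43b. The number of members without a peak that overlap a marked gene fell from 7 to 0 when at least 50% of the neighbour had to be covered. The share of flanking genes with a peak was 8.91% at 50% coverage (background 18.3%) and 15.8% with the wider 50% of the peaks (background 28.4%). No paired analysis was possible because the list holds no value per library, so no replicate could be left out either. Peak strength and depth were not given, so width stood in for a stricter threshold.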
